A study of Homo sapiens with 16 samples.

Results

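The transcripts of 8 keratin genes, KRT7, KRT8, KRT80, KRT81, KRT18, KRT19, KRT15 and KRT17, were followed by name through 16 RNA-seq libraries of human lung adenocarcinoma cells. The deposited table lists 60448 gene identifiers, and each of the 8 genes matched 1 of them. All libraries came from the established line A549 or from its cisplatin-resistant derivative A549/cDDP, in 8 groups of 2. A549/cDDP was transfected with a SCAT7 gapmer, aimed at a long noncoding RNA of that name, and kept in cisplatin or in its solvent, transfected with a control gapmer and kept in cisplatin or in solvent, or left untransfected in cisplatin or in solvent. Untransfected A549 was kept in cisplatin or in solvent. Per the labels' protocols, cisplatin, a platinum drug that crosslinks DNA, was given for 24 h, and the labels put its concentration at 15 mM, a unit not checked here. A549/cDDP was maintained at the same labelled concentration between experiments, so its solvent libraries also come from cells with earlier drug exposure. Gapmers are antisense DNA oligonucleotides with modified ends that let RNase H cut the RNA they pair with. They were given at 12 pmol to 35000 seeded cells, and transfected cells were collected 48 h later. The labels do not say whether the libraries of a group came from separate cultures, and p-values then cover no more than the variation among these libraries.

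Keratins build the intermediate filaments of epithelial cells. A filament is an obligate pair of a type II and a type I chain, so the cell needs a partner of the other type for each chain it makes, and unpaired chains are degraded. KRT8 and KRT18 form the founding pair of simple epithelia, with KRT7 and KRT19 added in glandular and ductal cells, and these 4 proteins are in routine use as carcinoma markers. The name simple epithelial keratins describes KRT7, KRT8, KRT18 and KRT19 only. KRT80 is a type II keratin found near desmosomes of many epithelia, KRT81 is a type II hair keratin, KRT15 is a type I keratin of basal cells and hair follicle stem cells, and KRT17 is a type I keratin of basal appendage cells that wounding and stress raise in skin.

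The genes lie in the keratin clusters of chromosomes 12 and 17 (build hg38, GENCODE release 29, all protein coding). The type II genes are KRT7 at chr12:52232520-52252186 on the plus strand, and KRT8 at chr12:52897187-52949954, KRT80 at chr12:52168996-52192000 and KRT81 at chr12:52285913-52291534 on the minus strand. KRT18, although type I, lies beside KRT8 at chr12:52948871-52952901 on the plus strand. KRT15 at chr17:41513743-41522529, KRT19 at chr17:41523617-41528308 and KRT17 at chr17:41619441-41624842 are on the minus strand, and KRT15 and KRT19 stand next to each other. Some of the genes have close copies or overlap another gene, which limits how their reads can be assigned. The coding sequence of KRT81 was 94.2% identical to that of KRT86, a neighbouring hair keratin, and 30.33% of the 100-base windows of its transcript occurred letter for letter in another gene. KRT18 was 92% identical to the processed pseudogene KRT18P4 (chr20:49956745-49958032, plus strand), but its 16.61% of shared windows were all with the overlapping KRT8. Of the windows of KRT8 7.56% occurred in 4 other genes, most often the pseudogene KRT8P3. KRT8 and KRT18 also share 525 exon bases on opposite strands, 16.31% of the exon bases of KRT18, and KRT7 shares 282 with its antisense gene KRT7-AS. The strand setting of the authors' counting is not given in the sources used here, so reads from such shared bases cannot be told apart. KRT19, KRT80 and KRT15 shared no 100-base window with another gene.

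The depth behind the values, recovered from low FPKM, was 31350000 to 43140000 fragments per library, with 31350000 to 33400000 in the SCAT7 gapmer libraries and 42300000 to 43140000 in the control gapmer libraries. ELF3-AS1, the gene of SCAT7, stood at 1.69 and 2.18 FPKM with the SCAT7 gapmer against 3.73 and 3.23 FPKM with the control gapmer in cisplatin, and at 0.594 and 0.837 against 2.56 and 3.57 FPKM in solvent. Among defining epithelial markers CDH1 lay between 2.02 and 14.5 FPKM and EPCAM between 0.584 and 3.81 FPKM, while CLDN7 and ESRP1 stayed at or under 0.32 FPKM in all libraries. The surfactant genes SFTPC and SFTPB of alveolar cells stayed under 0.2 FPKM. Of the airway and lung markers MUC5AC reached 22.7 FPKM, MUC5B 32.4 FPKM and NKX2-1 1.34 FPKM. KRT5, KRT14, DSG3 and IVL of squamous and basal epithelium stayed under 0.54 FPKM, while KRT6A reached 0.782 FPKM. TP63, from the same list, ran from 0.45 to 2.39 FPKM. COL1A1 of the fibroblast list ran from 7.2 to 52.7 FPKM, and the other fibroblast markers stayed at or under 0.389 FPKM. The endothelial and blood markers stayed under 1 FPKM.

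In every library KRT7 was the keratin with the highest FPKM, followed by KRT8 (fragments scaled to gene length and library size). Low FPKM mostly came out as whole reads when that length was all exon bases of a gene. These were 6881 bases for KRT8 and 4093 for KRT7, against 1687 and 1754 in the transcripts used for the windows. For KRT81 both lengths were 1929 bases. The order of genes by FPKM thus depends on the length used. KRT7 ran from 2735 to 4179 FPKM and KRT8 from 1547 to 2782 FPKM, which by their means were ranks 14 and 25 of all genes in the table. KRT18 (599 to 1437 FPKM) and the hair keratin KRT81 (295 to 1694 FPKM) came next. KRT19 ran from 90.5 to 251 FPKM, KRT80 from 12.3 to 58.3 FPKM and KRT15 from 3.35 to 23.6 FPKM. KRT17 never exceeded 1.69 FPKM. The genes differed in how far they ranged over the 16 libraries. The highest library of KRT7 was 1.53-fold above its lowest, against 2.4-fold for KRT18, 2.77-fold for KRT19, 5.74-fold for KRT81 and 7.05-fold for KRT15. Of the 8 keratins, 7 passed the filter on low values used for the tests (0.5 FPKM or more on average), and those 7 exceeded that level in every single library. KRT17, with a mean of 0.41 FPKM, was not tested.

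**Figure D1:**
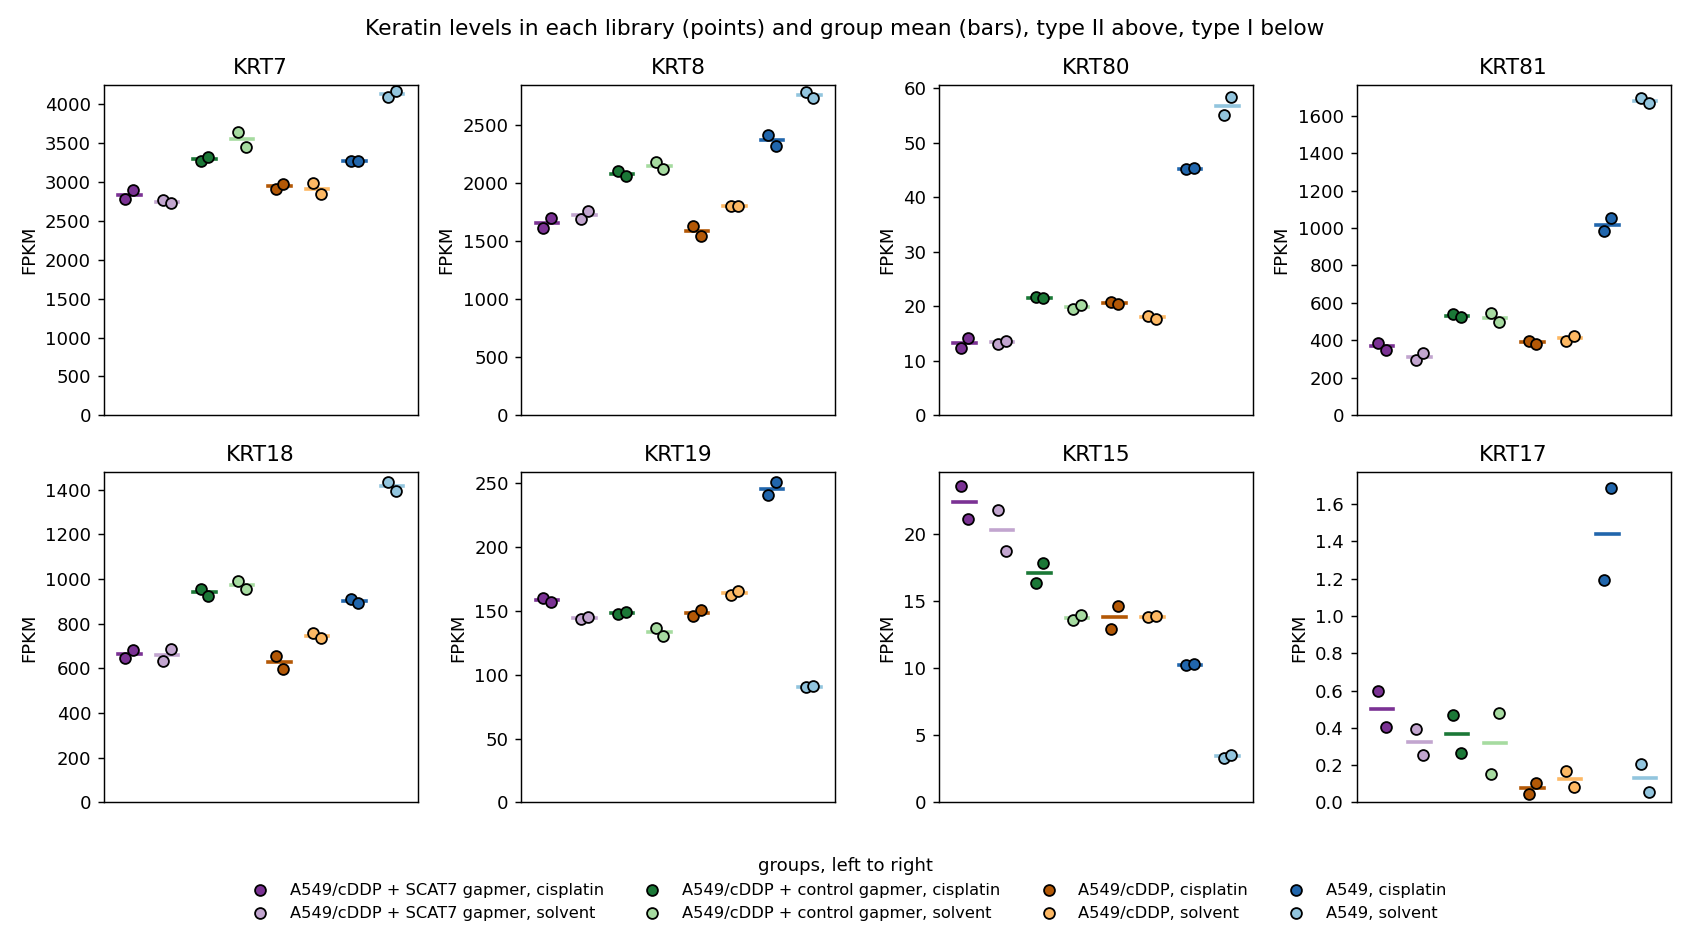
FPKM of each of the 8 keratins in each library (points) with the group mean (bars), 2 libraries per group, on linear axes that start at 0. A549 in solvent holds the highest values of KRT7, KRT8, KRT80, KRT81 and KRT18 and the lowest of KRT19 and KRT15.

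Cisplatin in A549 moved the keratins in opposite directions. KRT19 and KRT15 rose about equally, by 1.43 and 1.44 on the log2 scale, and KRT81, KRT18, KRT7, KRT80 and KRT8 fell. All 7 tested keratins were called, 2 higher and 5 lower, where called means an adjusted p under 0.05 in limma. In the same comparison 60.4% of all 17198 genes tested were called, 33.3% higher and 27.1% lower, so a call by itself sets the keratins little apart from other genes. The median change was -0.32 for the 7 keratins and 0.06 for all genes tested. The summed FPKM of the 10 epithelial markers was 354 to 375 in cisplatin and 566 in both solvent libraries, and that of the 7 mesenchymal markers 585 to 615 in cisplatin and 1091 to 1096 in solvent. CD24 alone made up most of the epithelial sum (339 FPKM in cisplatin and 539 FPKM in solvent), and of the 6 epithelial markers tested 1 was higher and 2 were lower, with a median of -0.12. VIM alone made up most of the mesenchymal sum (436 FPKM in cisplatin and 805 FPKM in solvent). Of the 7 mesenchymal markers 1 was higher and 5 were lower. The part of these markers in the keratin changes with cisplatin was not tested. In bulk RNA a smaller share of cells that make a keratin and less of its RNA per cell cannot be told apart.

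Among the type II chains KRT81 changed most. It had 982 and 1051 FPKM in cisplatin, against 1694 and 1667 FPKM in solvent. It fell by 39.5% (log2 change -0.73 ± 0.07 SE, adjusted p = 1.06e-06, limma). KRT7 had 3266 and 3271 FPKM in cisplatin, against 4101 and 4179 FPKM in solvent, and fell by 21% (log2 change -0.34 ± 0.05 SE, adjusted p = 3.08e-05, limma). The libraries of the arms did not overlap for either gene, and the replicates of KRT7 in cisplatin were nearly equal. KRT80 had 45.1 and 45.4 FPKM in cisplatin, against 55.2 and 58.3 FPKM in solvent (log2 change -0.32, adjusted p = 0.000427, limma). KRT8 had 2413 and 2320 FPKM in cisplatin, against 2782 and 2730 FPKM in solvent (log2 change -0.22, adjusted p = 0.000845, limma). The fall of KRT8 was the smallest of the 5, and with quantile normalization it was not called, at -0.05 on the log2 scale (adjusted p = 0.32, limma).

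The type I chains split. KRT18, the partner of KRT8, had 913 and 894 FPKM in cisplatin, against 1437 and 1396 FPKM in solvent. It fell by 36.2% (log2 change -0.65 ± 0.05 SE, adjusted p = 3.63e-07, limma). KRT19 had 241 and 251 FPKM in cisplatin, against 90.5 and 91 FPKM in solvent, a 2.7-fold difference (log2 change 1.43 ± 0.03 SE, adjusted p = 4.39e-12, limma). KRT15, its neighbour on chromosome 17, had 10.2 and 10.3 FPKM in cisplatin, against 3.35 and 3.55 FPKM in solvent, a 2.72-fold difference (log2 change 1.44 ± 0.08 SE, adjusted p = 1.09e-08, limma). Both cisplatin libraries of KRT19 were above all other libraries of the study. KRT17 had 1.19 and 1.69 FPKM in cisplatin, about 136 and 195 reads, against 0.206 and 0.0537 FPKM in solvent, about 24 and 6 reads. These too were its highest values of all 16 libraries. With no filter on low values, which tested 39459 genes, KRT17 was higher in cisplatin (log2 change 1.62, adjusted p = 0.000274, limma).

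In A549/cDDP cisplatin changed the keratins less. KRT7, KRT80, KRT81 and KRT15 were not called, and KRT18, KRT8 and KRT19 were lower by at most 0.25 on the log2 scale. The 3 calls of 7 compare with 8.1% of all genes tested (3.55% higher and 4.55% lower), a share that is itself far below that in A549. KRT18 had 658 and 599 FPKM in cisplatin, against 758 and 734 FPKM in solvent (log2 change -0.25, adjusted p = 0.0138, limma). KRT8 had 1626 and 1547 FPKM in cisplatin, against 1800 and 1801 FPKM in solvent (log2 change -0.18, adjusted p = 0.0248, limma). KRT19 had 146 and 150 FPKM in cisplatin, against 162 and 166 FPKM in solvent (log2 change -0.14, adjusted p = 0.0188, limma). The arms did not overlap for these 3 genes. The KRT8 call was lost with no filter on low values (adjusted p = 0.0611, limma) and with median ratio scaling (0.0702). All 3 calls were lost when only the 4 libraries compared entered the fit, and all 3 were lost without either solvent library or without the second cisplatin library, while leaving out the first cisplatin library kept 2. In the fit on only the 4 libraries compared, calls over all genes fell from 1393 to 417, so fewer genes of any kind were called. KRT7 had 2916 and 2976 FPKM in cisplatin, against 2983 and 2850 FPKM in solvent, with a 95% confidence interval of -0.08 to 0.11 around a log2 change of 0.01. The interval of KRT15 ran from -0.19 to 0.17, and its arms overlapped.

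The difference between the lines in their change with cisplatin was tested directly, as the change in A549/cDDP minus that in A549. It was called for 6 of the 7 keratins, beside 47% of all genes tested (21.5% higher and 25.6% lower). KRT81 (0.65), KRT80 (0.51), KRT18 (0.4) and KRT7 (0.36) had the more positive change in A549/cDDP, and KRT19 (-1.58) and KRT15 (-1.45) the more negative one, all on the log2 scale with adjusted p of 0.000808 or less in limma. With quantile normalization the difference was 0.2 for KRT18 and 0.41 for KRT81, both still called. KRT8 was the exception, with a difference of 0.04 and a 95% confidence interval of -0.1 to 0.17. KRT19 thus had a called change in both lines and in opposite directions, higher with cisplatin in A549 and lower with it in A549/cDDP, although the second call depended on the settings given above.

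After transfection the change of the keratins with cisplatin was small for either gapmer. With the SCAT7 gapmer KRT19 had 161 and 157 FPKM in cisplatin, against 144 and 145 FPKM in solvent (log2 change 0.14, adjusted p = 0.0399, limma), and no other keratin was called (4.18% of all genes tested were, 2.92% higher and 1.26% lower). With the control gapmer KRT19 had 148 and 149 FPKM in cisplatin, against 137 and 131 FPKM in solvent (log2 change 0.15, adjusted p = 0.0333, limma), again as the only keratin called (2.53% of all genes tested, 1.67% higher and 0.855% lower). Both calls were lost with median ratio scaling and with the fit restricted to the libraries compared. That restricted fit also took calls over all genes from 719 to 0 for the SCAT7 gapmer and from 435 to 270 for the control gapmer. The control gapmer call was lost without any 1 of its 4 libraries, and the SCAT7 gapmer call without any 1 of them except the second cisplatin library. The change with the SCAT7 gapmer minus that with the control gapmer was called in limma for 0 of the 7 keratins and for 0.93% of all genes tested (0.488% higher and 0.442% lower). Only KRT7 had an unadjusted p under 0.05, with a difference of 0.15 (95% confidence interval 0.01 to 0.29). KRT81 had the largest difference, at 0.21, with an interval of -0.000307 to 0.41.

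**Figure D2:**
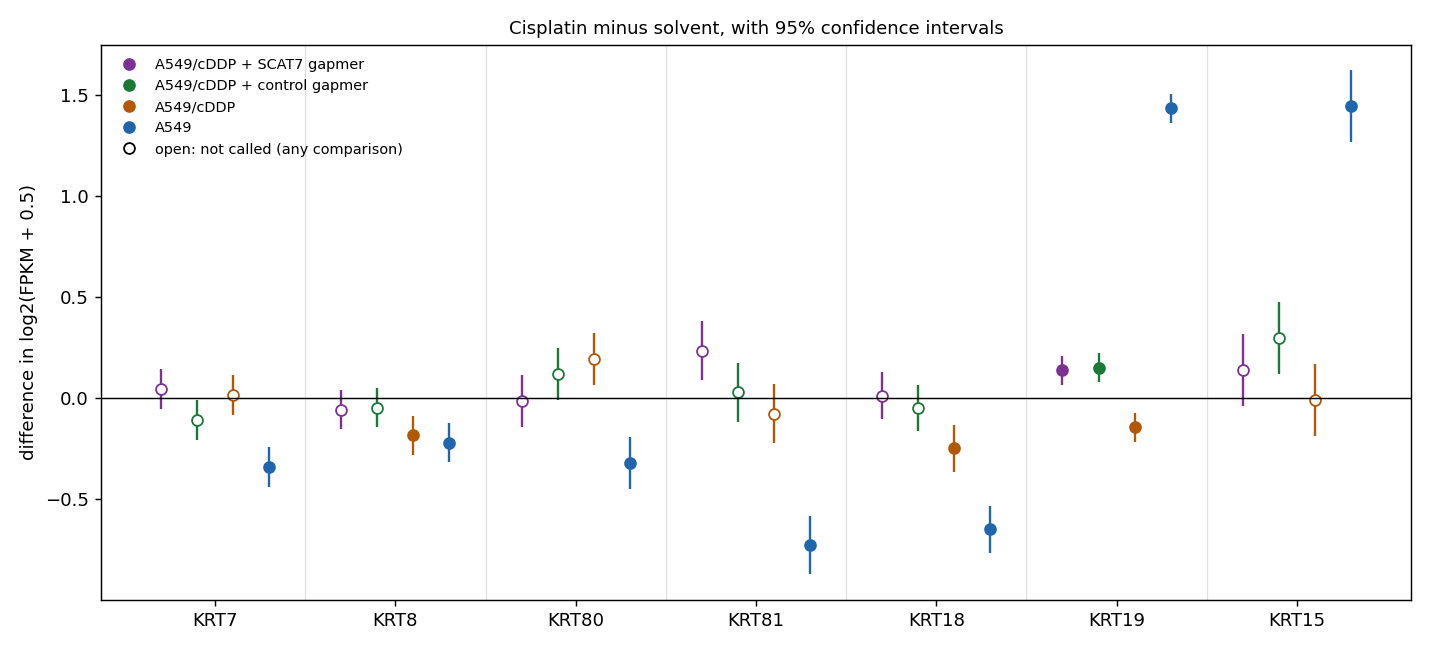
Difference in log2(FPKM + 0.5) between cisplatin and solvent for the 7 tested keratins in 4 settings, with 95% confidence intervals from limma. Filled points are called at an adjusted p under 0.05, and the A549 points of KRT19 and KRT15, at 1.43 and 1.44, stand apart from all others.

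The 2 lines differed strongly in their keratins, and KRT81 and KRT80 differed most among the falls. In cisplatin 1 of the 7 keratins was higher in A549/cDDP and 6 were lower, beside 66.5% of all genes called (37% higher and 29.5% lower). In solvent 2 were higher and 5 lower, beside 70.2% of all genes called (42.7% higher and 27.5% lower). KRT19 changed sides between these comparisons: it was lower in A549/cDDP than in A549 in cisplatin and higher in solvent. The median over all genes tested was 0.15 in solvent as deposited and -0.01 after median ratio scaling, a shift that turned the direction of none of these 14 differences.

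KRT81 had 399 and 378 FPKM in A549/cDDP against 982 and 1051 FPKM in A549 in cisplatin (log2 difference -1.39, adjusted p = 2.56e-09, limma). In solvent it had 399 and 421 FPKM in A549/cDDP, against 1694 and 1667 FPKM in A549 (log2 difference -2.03, adjusted p = 7.51e-11, limma), a level 75.6% below. The closest pair of libraries was thus still far apart. KRT80 had 20.8 and 20.4 FPKM in A549/cDDP against 45.1 and 45.4 FPKM in A549 in cisplatin (log2 difference -1.12, adjusted p = 5.7e-09, limma). In solvent its values were 18.3 and 17.6 FPKM in A549/cDDP and 55.2 and 58.3 FPKM in A549 (log2 difference -1.63, adjusted p = 1.71e-10, limma). KRT80 shares no 100-base window with another gene, but copies that are alike without such a window were not measured for it.

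The pair of KRT8 and KRT18 was lower in A549/cDDP in both media. KRT8 differed by -0.58 in cisplatin and -0.61 in solvent on the log2 scale, and KRT18 by -0.52 and -0.92. In solvent KRT18 stood at 758 and 734 FPKM in A549/cDDP, against 1437 and 1396 FPKM in A549. KRT7 differed by -0.15 in cisplatin (adjusted p = 0.0112, limma) and -0.51 in solvent (adjusted p = 6.67e-07, limma). The difference of KRT7 in cisplatin was not called with only the libraries compared (adjusted p = 0.149, limma), and median ratio scaling made it -0.25, still called. KRT19 had 146 and 150 FPKM in A549/cDDP against 241 and 251 FPKM in A549 in cisplatin (log2 difference -0.73, adjusted p = 1.44e-09, limma). In solvent it had 162 and 166 FPKM in A549/cDDP, against 90.5 and 91 FPKM in A549 (log2 difference 0.85, adjusted p = 2.94e-10, limma). The values of A549/cDDP in either medium lay between those of A549 in solvent and A549 in cisplatin. KRT15 was higher in A549/cDDP in both media. It had 12.9 and 14.6 FPKM in A549/cDDP against 10.2 and 10.3 FPKM in A549 in cisplatin (log2 difference 0.41, adjusted p = 0.000715, limma). In solvent it had 13.8 and 13.9 FPKM in A549/cDDP, against 3.35 and 3.55 FPKM in A549, a 3.63-fold difference (log2 difference 1.86, adjusted p = 8.96e-10, limma). KRT17 had 0.0481 and 0.105 FPKM in A549/cDDP, against 1.19 and 1.69 FPKM in A549 in cisplatin, and with no filter on low values it was lower in A549/cDDP (log2 difference -1.74, adjusted p = 0.000142, limma). In solvent its libraries of the 2 lines overlapped.

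Markers of the epithelial and of the mesenchymal state moved with the line as well. The summed FPKM of the 10 epithelial markers was 100 to 112 in A549/cDDP against 354 to 375 in A549 in cisplatin. In solvent it was 118 to 123 in A549/cDDP and 566 in both libraries of A549, with CD24 at 108 FPKM in A549/cDDP and 539 FPKM in A549. Of the 6 epithelial markers tested, 1 was higher and 5 were lower in A549/cDDP in cisplatin, and 1 was higher and 4 were lower in solvent. Over all genes tested 37% were higher and 29.5% lower in cisplatin, and 42.7% higher and 27.5% lower in solvent. All 7 mesenchymal markers were higher in A549/cDDP in both media, and their summed FPKM in solvent was 1468 to 1507 in A549/cDDP against 1091 to 1096 in A549. No marker of either list was at 0 in all libraries. VIM, the intermediate filament protein of mesenchymal cells, had 1129 and 1105 FPKM in A549/cDDP in solvent, against 805 and 805 FPKM in A549. It alone made up most of the mesenchymal sum. The part of these markers in the keratin differences was not tested.

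**Figure D3:**
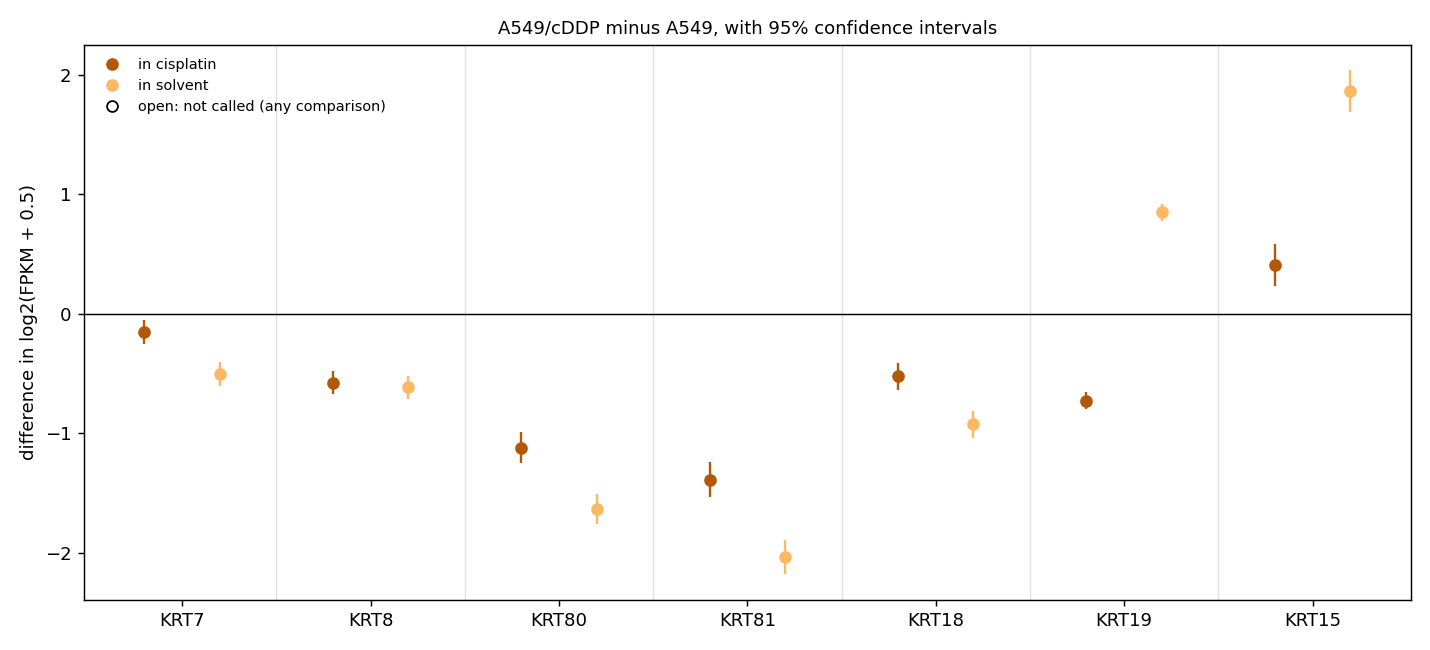
Difference in log2(FPKM + 0.5) between A549/cDDP and A549 for the 7 tested keratins, in cisplatin and in solvent, with 95% confidence intervals from limma. Every point is called, and KRT19 lies at -0.73 in cisplatin and at 0.85 in solvent.

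The SCAT7 gapmer was compared with the control gapmer in A549/cDDP, in cisplatin and in solvent. In both media KRT7, KRT8, KRT80, KRT81 and KRT18 were lower with the SCAT7 gapmer and KRT15 and KRT19 higher, 7 calls of 7 each. Of all genes 49.7% were called in cisplatin (28.6% higher and 21.1% lower) and 55.8% in solvent (33.2% higher and 22.7% lower). The median difference of the 7 keratins was -0.33 in cisplatin and -0.37 in solvent, against 0.04 in cisplatin and 0.06 in solvent for all genes tested. Of the 6 epithelial markers tested, 0 were higher and 3 lower with the SCAT7 gapmer in cisplatin and 1 was higher and 3 lower in solvent, while 4 of the 7 mesenchymal markers were higher and 0 lower in both media. The summed FPKM of the epithelial list, most of it CD24, was 90.8 to 107 with the SCAT7 gapmer and 91.2 to 93 with the control gapmer in cisplatin, and 102 to 113 and 91.2 to 97.9 in solvent. That of the mesenchymal list, most of it VIM, was 1357 to 1497 with the SCAT7 gapmer and 1379 to 1382 with the control gapmer in cisplatin. In solvent it was 1531 to 1536 and 1539 to 1555. The part of these markers in the keratin differences between the gapmers was not tested.

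KRT81 had 387 and 350 FPKM with the SCAT7 gapmer against 538 and 526 FPKM with the control gapmer in cisplatin (log2 difference -0.53, adjusted p = 3.95e-05, limma). In solvent it had 295 and 331 FPKM with the SCAT7 gapmer, against 546 and 498 FPKM with the control gapmer (log2 difference -0.74, adjusted p = 1.75e-06, limma). The libraries of the gapmers did not overlap in either medium. KRT18 had 646 and 684 FPKM with the SCAT7 gapmer against 956 and 926 FPKM with the control gapmer in cisplatin (log2 difference -0.50, adjusted p = 9.96e-06, limma), and its difference in solvent was -0.56. KRT80 had 12.3 and 14.3 FPKM with the SCAT7 gapmer against 21.6 and 21.5 FPKM with the control gapmer in cisplatin (log2 difference -0.68, adjusted p = 1.85e-06, limma), and its difference in solvent was -0.55. The 4 SCAT7 gapmer libraries thus held the lowest KRT80 values of the study.

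KRT7 had 2777 and 2899 FPKM with the SCAT7 gapmer against 3275 and 3322 FPKM with the control gapmer in cisplatin (log2 difference -0.22, adjusted p = 0.00175, limma). In solvent it had 2766 and 2735 FPKM with the SCAT7 gapmer, against 3647 and 3456 FPKM with the control gapmer (log2 difference -0.37, adjusted p = 2.34e-05, limma). With only the libraries compared in the fit, KRT7 was not called in cisplatin (adjusted p = 0.063, limma). KRT8 differed by -0.33 in cisplatin and -0.32 in solvent, and in solvent the call was lost with quantile normalization, at -0.06 (adjusted p = 0.229, limma). KRT15 had 23.6 and 21.1 FPKM with the SCAT7 gapmer against 16.3 and 17.8 FPKM with the control gapmer in cisplatin (log2 difference 0.38, adjusted p = 0.00205, limma). In solvent it had 21.8 and 18.8 FPKM with the SCAT7 gapmer, against 13.6 and 14 FPKM with the control gapmer (log2 difference 0.54, adjusted p = 0.000123, limma). The difference of KRT19 was 0.1 in cisplatin and 0.11 in solvent. Median ratio scaling made both smaller and took both calls (0.05 and 0.03), as did the fit on only the libraries compared, and so did leaving out either control gapmer library or the first SCAT7 gapmer library in cisplatin, and the second library of either gapmer in solvent.

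The control gapmer libraries differed from untransfected A549/cDDP too, and in the direction opposite to that above for KRT7, KRT8, KRT81 and KRT18 in both media and for KRT19 in solvent. In cisplatin KRT18 (0.58), KRT81 (0.45), KRT8 (0.39), KRT15 (0.3) and KRT7 (0.16) were higher with the control gapmer, beside 42.4% of all genes called (23% higher and 19.4% lower). The calls of KRT7 and KRT15 in cisplatin were lost without the first untransfected library or without the second control gapmer library, and that of KRT7 also with median ratio scaling and with only the libraries compared. In solvent KRT18 (0.38), KRT81 (0.35), KRT7 (0.28) and KRT8 (0.25) were higher and KRT19 (-0.29) was lower, beside 39.7% of all genes called (20.7% higher and 19% lower). KRT18, for instance, had 956 and 926 FPKM with the control gapmer against 658 and 599 FPKM untransfected in cisplatin, and 993 and 954 against 758 and 734 FPKM in solvent. This comparison and the one between the gapmers share the control gapmer libraries.

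The SCAT7 gapmer libraries were therefore also set against untransfected A549/cDDP, a comparison added after the data had been seen. ELF3-AS1 had 1.69 and 2.18 FPKM with the SCAT7 gapmer against 2.41 and 2.41 FPKM untransfected in cisplatin, a small gap. In solvent it had 0.594 and 0.837 against 2.89 and 3.79 FPKM. In cisplatin KRT80 (-0.62) was lower and KRT15 (0.68) and KRT19 (0.1) were higher, 3 calls of 7 beside 47.5% of all genes (28.5% higher and 18.9% lower). In solvent KRT80 (-0.41), KRT81 (-0.39), KRT19 (-0.18) and KRT18 (-0.18) were lower and KRT15 (0.53) was higher, 5 calls beside 53.3% of all genes (30.6% higher and 22.7% lower). KRT80 was thus lower, and KRT15 higher, with the SCAT7 gapmer than in either kind of other A549/cDDP library in both media, adjusted p = 0.00205 or less in limma for each of these 8 differences. KRT7 was not called against untransfected cells, with intervals of -0.15 to 0.04 in cisplatin and -0.18 to 0.01 in solvent. With median ratio scaling KRT7 was called lower in solvent, at -0.16 (adjusted p = 0.0224, limma). The intervals of KRT8 were -0.04 to 0.16 and -0.16 to 0.03. Scaling turned the direction of KRT8 in solvent: quantile normalization gave 0.22, called, and median ratio scaling -0.14, called. In cisplatin quantile normalization also called KRT8 (0.24) and KRT18 (0.18). KRT19 in cisplatin and KRT18 in solvent were each called as deposited and not under quantile normalization, nor without the first untransfected or the first SCAT7 gapmer library, and KRT19 was also not called with median ratio scaling (0.02).

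**Figure D4:**
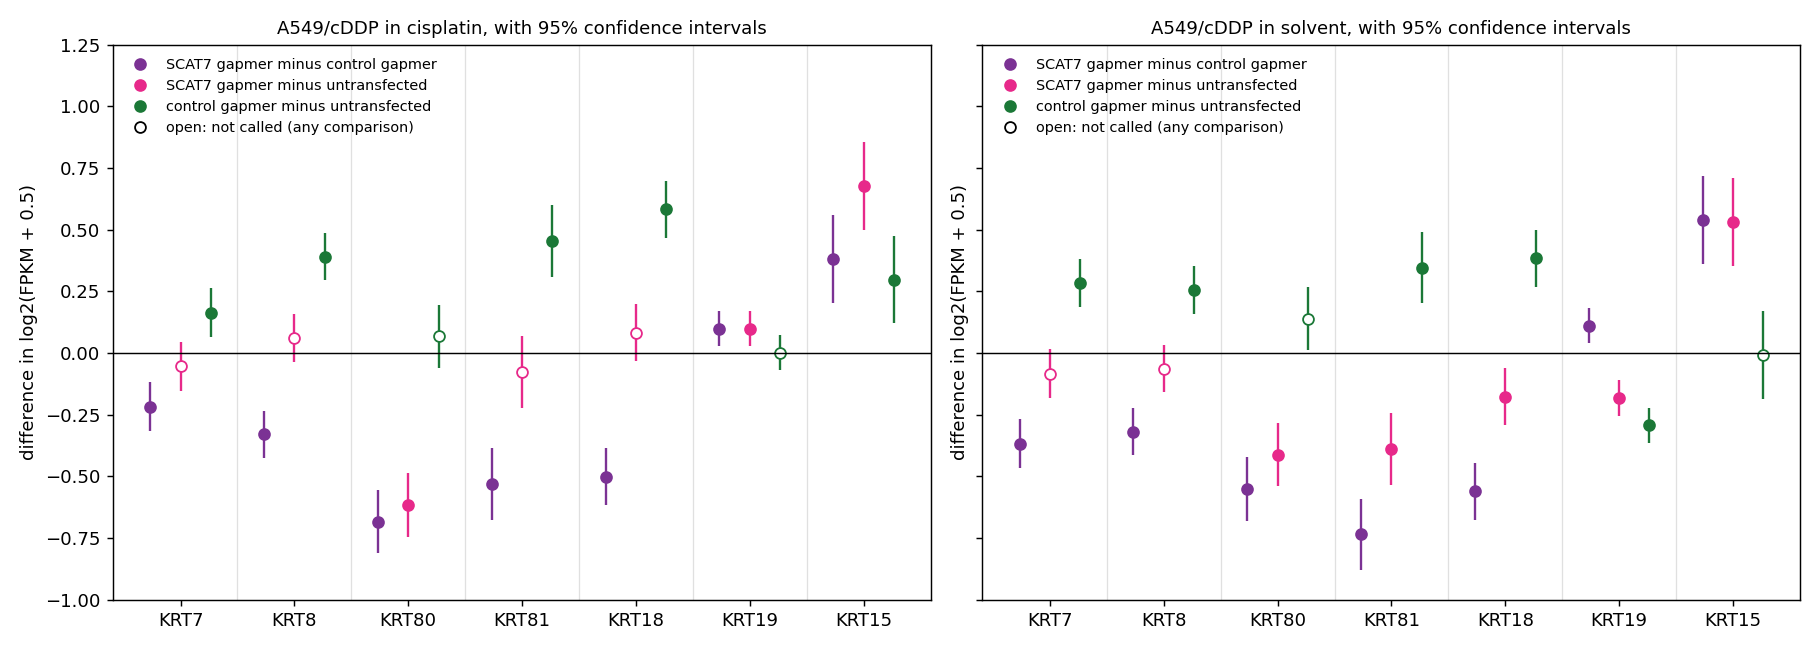
Differences in log2(FPKM + 0.5) among SCAT7 gapmer, control gapmer and untransfected A549/cDDP libraries for the 7 tested keratins, with 95% confidence intervals from limma, in cisplatin (left) and in solvent (right). For KRT7, KRT8, KRT81 and KRT18 the control gapmer differs upwards from untransfected cells and the SCAT7 gapmer downwards from the control gapmer. With the SCAT7 gapmer KRT80 and KRT15 keep their side against either in both media. KRT81 and KRT18 do so as called only in solvent (-0.39 and -0.18 against untransfected cells).

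Because type II and type I chains pair, their balance was described from the summed FPKM of the 4 members of each type, with no test. The ratio of type II to type I ran only from 5.3 to 6.44 over the 16 libraries, with a mean of 5.73, while the sum of the 8 ran from 5564 to 10160 FPKM. With FPKM multiplied by exon length, which weights genes by fragments, the mean ratio was 8.81. The 8 keratins held 1.34% of all FPKM in A549 in solvent and 0.769% to 1.04% in the other groups. The ratio, sums and shares depend on the gene lengths described above, so they compare libraries rather than genes. Within the sum the make-up shifted. KRT81 made up 12.5% and 13.4% of it in A549 in cisplatin and 16.7% and 16.5% in A549 in solvent, but 5.31% to 7.63% in the 12 A549/cDDP libraries. KRT7 made up 46.4% to 52.3% in A549/cDDP and 40.4% to 41.7% in A549. KRT19 stood at 26.4% and 28.1% of the FPKM of KRT18 in A549 in cisplatin, against 6.3% and 6.52% in A549 in solvent. The ratio of KRT8 to KRT18 was 2.64 and 2.6 in A549 in cisplatin, against 1.94 and 1.96 in A549 in solvent, the lowest of the study.

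**Figure D5:**
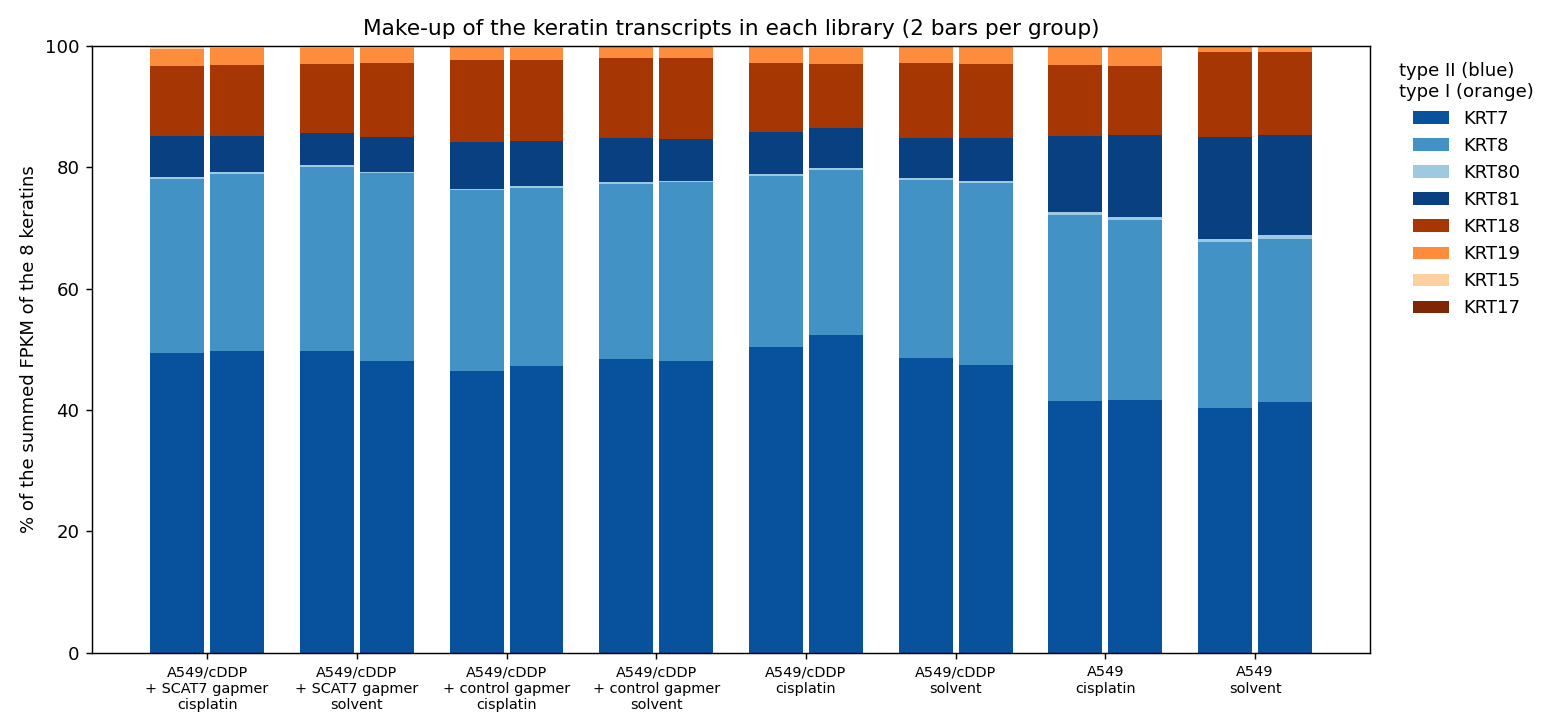
Share of each keratin in the summed FPKM of the 8, in percent, 1 bar per library and 2 bars per group, type II in blue and type I in orange. KRT15 and KRT17, at no more than 0.42% and 0.022%, are too thin to see, and the KRT81 segment is wider in the 4 A549 libraries than in the 12 A549/cDDP libraries.

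The table held 47 other keratin genes, of which 7 passed the filter on low values. In A549 with cisplatin 3 of these were higher and 1 was lower, beside 33.3% higher and 27.1% lower over all genes tested. KRT4, a type II keratin of stratified mucosa, was present in A549 and nearly absent from A549/cDDP. It had 0.0418 and 0.182 FPKM in A549/cDDP against 13.2 and 12.5 FPKM in A549 in cisplatin, and 0.0847 and 0.173 against 8.68 and 9.67 FPKM in solvent (log2 difference -3.95 in solvent, adjusted p = 3.87e-10, limma). KRT4 passed the filter on low values only through its A549 libraries, so its p-value adds nothing to these values. KRT86, the close copy of KRT81, had 2.74 and 3.34 FPKM in A549/cDDP in solvent, against 6.04 and 5.92 FPKM in A549 (log2 difference -0.88, adjusted p = 0.000167, limma). That is the direction of KRT81, but reads of the 2 genes can be exchanged over the windows they share, so the KRT86 values are uncertain. KRT10, the only other keratin above 20 FPKM in all libraries, was higher with the SCAT7 gapmer than with the control gapmer in cisplatin, at 32.1 and 31.6 FPKM against 25.1 and 22.3 FPKM (log2 difference 0.42, adjusted p = 0.000198, limma). KRT16, a stress keratin of the skin like KRT17, had 3.73 and 2.71 FPKM with the SCAT7 gapmer against 1.67 and 1.54 FPKM with the control gapmer in cisplatin (log2 difference 0.81, adjusted p = 0.00162, limma). Untransfected A549/cDDP in cisplatin had KRT16 at 2.26 and 2.76 FPKM, above the control gapmer libraries and overlapping those of the SCAT7 gapmer.

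Of 136 keratin pseudogenes listed, 4 were tested. With the SCAT7 gapmer 3 of these 4 were higher than with the control gapmer in cisplatin, beside 28.6% of all genes, and 4 in solvent, beside 33.2%. KRT18P4 and KRT8P46 passed the filter on low values only through the SCAT7 gapmer libraries, where they averaged 2.26 and 1.5 FPKM in cisplatin. Part of these counts thus follows from the filter, and they lend no support beyond the values themselves. KRT18P4, named after its values were seen, had 2.63 and 1.89 FPKM with the SCAT7 gapmer against 0.11 and 0.22 FPKM with the control gapmer in cisplatin, and 3.22 and 2.65 against 0.162 and 0.126 FPKM in solvent (log2 difference 2.41 in solvent, adjusted p = 3.07e-07, limma). In the 12 other libraries it stayed at or under 0.22 FPKM. KRT18 itself was lower in the same SCAT7 gapmer libraries, as given above. KRT8P12, a processed copy of KRT8 on chromosome 3 with 90.6% identity, had 13.1 and 10.6 FPKM with the SCAT7 gapmer in solvent, against 6.52 and 7.05 FPKM with the control gapmer. Untransfected A549/cDDP in solvent lay between them, with KRT8P12 at 9.59 and 8.67 FPKM. The SCAT7 gapmer libraries also held more genes at low counts, with 8820 to 9112 genes above 0 and at about 10 recovered reads or fewer, against 7715 to 7966 with the control gapmer, and the part of this in the pseudogene values was not tested. Values of such copies are uncertain, because the rule by which the authors assigned reads that fit several genes is not given in the sources used here.

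Genes of keratin attachment were followed beside the keratins. Of 22 genes of desmosomes, hemidesmosomes and plakins, the junctions and linker proteins that anchor keratin filaments, 17 were tested. In A549 with cisplatin 13 were higher and 2 lower, beside 33.3% and 27.1% of all genes tested, with a median of 0.51 against 0.06 over all genes. The desmosomal cadherin DSC3 averaged 14.4 FPKM in cisplatin and 1.26 FPKM in solvent (log2 change 3.09, adjusted p = 6.81e-11, limma), the hemidesmosome collagen COL17A1 averaged 13.2 and 2.37 FPKM, plakoglobin (JUP) 223 and 99.2 FPKM, and desmoplakin (DSP) 37.6 and 20.5 FPKM. In A549/cDDP with cisplatin 1 of the 17 was higher and 2 were lower (3.55% and 4.55% of all genes). Between the lines in solvent 12 were higher in A549/cDDP and 3 lower (42.7% and 27.5% of all genes), led by the hemidesmosome integrin ITGB4 at 282 FPKM in A549/cDDP and 64.8 FPKM in A549. With the SCAT7 gapmer 6 were higher than with the control gapmer and 4 lower in cisplatin (28.6% and 21.1% of all genes), and 7 higher and 2 lower in solvent (33.2% and 22.7% of all genes). Epiplakin (EPPK1), which binds keratin filaments, averaged 2.23 FPKM with the SCAT7 gapmer and 0.0576 FPKM with the control gapmer in cisplatin (log2 difference 2.29, adjusted p = 1.59e-07, limma). EPPK1 passed the filter on low values only through the SCAT7 gapmer libraries, since every other group averaged 0.246 FPKM or less. Its call was thus favoured by the filter, and the part of the larger number of low-count genes in those libraries was not tested.

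Of 12 keratin-binding proteins and regulators of the network, all tested, 7 were higher and 1 lower with cisplatin in A549, where 33.3% of all genes were higher and 27.1% lower. SFN, the 14-3-3 protein of epithelia that binds keratins and responds to DNA damage, averaged 406 FPKM in cisplatin and 149 FPKM in solvent (log2 change 1.45, adjusted p = 5.87e-11, limma), and FAM83H, which organises keratin filaments, 85.3 and 25.4 FPKM. TCHP, a keratin-binding protein, was the member that fell (13.2 and 24.1 FPKM). Of the other 15 intermediate filament genes 9 were tested, and with cisplatin in A549 6 were higher and 3 lower, beside the same shares of all genes. The neurofilament gene NEFL averaged 23 FPKM in cisplatin and 2.91 FPKM in solvent, and the nuclear lamin LMNB1 13.7 and 96.9 FPKM. Of 19 epithelial transcription factors 14 were tested, 6 higher and 6 lower with cisplatin in A549, again beside 33.3% and 27.1% of all genes. GRHL3, a factor of the epidermal barrier, averaged 22.4 FPKM in cisplatin and 0.448 FPKM in solvent (log2 change 4.6, adjusted p = 9.95e-11, limma). Between the lines in solvent 4 of the 14 were higher in A549/cDDP and 10 lower (42.7% and 27.5% of all genes). Among the lower was TP63, the master factor of basal cells, at 0.607 FPKM in A549/cDDP and 2.3 FPKM in A549. Among the higher were KLF4, at 18.6 FPKM in A549/cDDP and 9.02 FPKM in A549, and CDX2, at 1.84 and 0.324 FPKM.

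For each tested keratin the 2 genes whose group means followed it most closely were taken from the 10507 genes that averaged 5 FPKM or more, by the correlation of log2(FPKM + 0.5) over the 8 group means. With 8 points that share their libraries such values are high for many genes (between 52 and 325 genes exceeded 0.95 for each keratin), so they describe the shape only. KRT81 was followed by NONO (r = 0.999) and C1QBP (0.997), KRT80 by IMPDH1 (0.996) and RNH1 (0.994), KRT7 by MRTO4 (0.991) and HADH (0.986), and KRT8 by CENPV (0.993) and PHLPP1 (0.992). KRT18 was followed by CCDC88C (0.994) and LDHA (0.993), KRT15 by RAB2B (0.995) and ZNF155 (0.993), and KRT19 by RAB14 (0.991) and COL17A1 (0.984). COL17A1 was the only one of these 14 that is also among the attachment genes described above.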

How the data were processed

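The authors deposited FPKM, 1 column per library. The submitters' processing notes name TopHat2, HTSeq (0.6.1) and hg38. Annotation release, strand setting and treatment of reads that fit several genes are not given in the sources used here. Of the 60448 identifiers, GENCODE release 29 named 56868. The 17198 genes that averaged 0.5 FPKM or more were placed on the log2(FPKM + 0.5) scale. A model in limma 3.58.1 (under R 4.3.3) held the mean of each of the 8 groups and a trended prior, left 8 residual degrees of freedom and gave each comparison, two-sided, Benjamini-Hochberg adjusted over all genes, threshold 0.05. The fit was also run on simulated data with independent noise and few changed genes. That setting is unlike these data, so it does not check the calls made here. A fold or percent change comes from the log2 scale, which understates changes of low genes.

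Depth was recovered from low FPKM, which are multiples of the value of 1 read: 70.2% to 75.6% of low values per library came out whole within 0.02 reads, so read numbers are approximate. These depths limit KRT17 (6 to 195 reads).

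The members and lists were chosen with earlier results of these data known. Named were all 8 keratins, other keratins and pseudogenes with a mean of at least 1 FPKM, up to 4 called genes per list and comparison with the largest change, and for each tested keratin the 2 genes most like it. Identities and shared windows were computed with Biopython 1.88 from GENCODE release 29 transcripts. The comparison of SCAT7 gapmer with untransfected libraries was added after the data had been seen, and the alternatives tried are given with their effects in the closing section.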

Additional observations from a re-analysis of the deposited data

Results flagged for a closer look

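For 6 keratins the change with cisplatin differed between A549/cDDP and A549 by a test of the difference itself (the interaction contrast in limma, adjusted over 17198 genes). The change in A549/cDDP minus that in A549, on the log2 scale, was 0.648 for KRT81, 0.514 for KRT80, 0.4 for KRT18 and 0.356 for KRT7. It was -1.58 for KRT19 and -1.45 for KRT15. In the same test 47% of all genes tested were called. Each group holds 2 libraries, too few to look for single libraries that stand apart within a group.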

How the results depend on the processing

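The alternatives were other pseudocounts, other filters on low values, median ratio scaling, quantile normalization, library quality weights, a replicate block, a fit on only the libraries compared, and leaving out each library in turn. Outside leaving out libraries, 846 values of single keratins kept direction and side of the threshold, 28 lost their call, 7 gained one and 1 reversed. The reversal was KRT8 for the SCAT7 gapmer against untransfected in solvent, 0.2223 with quantile normalization; the cause was not tested.

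Counts of called keratins that moved concerned cisplatin within A549/cDDP: 0 for untransfected cells with only the libraries compared; with the control gapmer 0 with no filter on low values, median ratio scaling or only the libraries compared and 2 with quality weights; with the SCAT7 gapmer 0 with median ratio scaling, quality weights, the replicate block or only the libraries compared. Leaving out a library gave 0 to 2 calls for untransfected A549/cDDP, 0 to 0 with the control gapmer, 0 to 2 with the SCAT7 gapmer and 3 to 5 for the control gapmer against untransfected in cisplatin. With only the libraries compared, calls over all genes for cisplatin within A549/cDDP fell as well. They went from 1393 to 417 for untransfected cells, 435 to 270 with the control gapmer and 719 to 0 with the SCAT7 gapmer. The ratio of type II to type I was 8.807 in relative fragments, where weighting by exon length is the change made. The labels name no shared culture for replicate numbers, and replicate differences correlated by -0.0727 to 0.113. The replicate block moved no other count of called keratins by over 1.5 times.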
